A study of Mus musculus with 30 samples.

Results

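The comparison set 3 drug-resistant lymphoma lines against the line they came from, all after 24 h of 750 nM mafosfamide. It used 8 of the 30 arrays of the series. The resistant arrays were the lines R500, R1000 and R4000, selected at 500, 1000 and 4000 nM of mafosfamide and then exposed to 750 nM for 24 h, with 1 array each. The parental arrays were the 5 cultures labelled as biological replicates 1 to 5 at 24 h of the same dose. All 8 cultures were Eµ-Myc B cells of genotype Cdkn2a-/- on the C57BL/6J background, in which an immunoglobulin heavy chain enhancer drives Myc in B-lineage cells. They shared flasks with irradiated Cdkn2a-/- mouse embryonic fibroblasts, so each RNA sample could hold feeder RNA beside lymphoma RNA. The lines were successive harvests of 1 dose escalation of 1 lymphoma line. A difference shared by them may have arisen once, and no p-value here covers other tumours or mice.

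Values were log2 expression from Affymetrix Mouse Gene ST 1.0 arrays, 1 value per gene for 19937 genes. The medians of the 8 arrays lay between 7.28 and 7.37, and the correlations between arrays between 0.978 and 0.995, so no pair was identical. Parental replicate 1 reached at most 0.987 with any other array, where each of the others reached at least 0.991 with some array. Parental replicate 3 correlated more with R1000 (0.994) than with parental replicate 1 (0.984). The B-cell label held in both groups. The mean of 14 B-cell identity genes was between 11.88 and 12.08 in the treated lines and between 11.88 and 12.20 in the parental cultures, and 0 of the 14 passed the test. Lists of genes of T and NK cells, of myeloid cells and of red cells (15, 17 and 6 measured) also had 0 genes past the test, and their means over the 8 arrays lay at 6.35 to 6.55, 7.001 to 7.37 and 6.88 to 7.02. Of all 19937 genes 0.647% passed, so 0 calls in such short lists is no support for the label, which rests on the levels. Myc itself was at 13.18, 13.16 and 13.30 in R500, R1000 and R4000 and at 13.03 to 13.11 in the parental cultures (log2 difference 0.14 ± 0.06 SE, adjusted p = 0.314). Cdkn2a, deleted in lymphoma and feeder cells alike, lay at 7.21 to 7.39 in the lines and 7.19 to 7.56 in the parental cultures.

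Mafosfamide is a form of cyclophosphamide that acts in culture without activation by the liver. It releases an alkylating mustard that crosslinks DNA, and the damage activates p53, which switches on genes for cell cycle arrest, repair and death. Electrophilic products of the drug also consume glutathione. The transcription factor NRF2 answers such stress by switching on genes for glutathione synthesis, quinone reduction and haem breakdown. Fibroblasts make collagens, matrix proteins and contractile proteins that B cells lack, and on a mixed flask those transcripts report how much feeder RNA was extracted.

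Feeder RNA differed between the groups. The mean of the 34 measured fibroblast genes was 9.54, 9.15, 8.03, 8.81 and 8.60 in parental replicates 1 to 5 at 24 h. The treated lines had means of 7.91 (R500), 7.87 (R1000) and 7.61 (R4000). Every line was below every parental culture, and replicate 3 was the parental culture nearest to the lines. Without drug the levels overlapped, at 8.13, 7.96 and 8.17 in the lines and 7.81 to 8.32 in the parental cultures at 0 h. In bulk RNA, fewer cells of a type and less RNA per cell cannot be told apart.

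**Figure D1:**
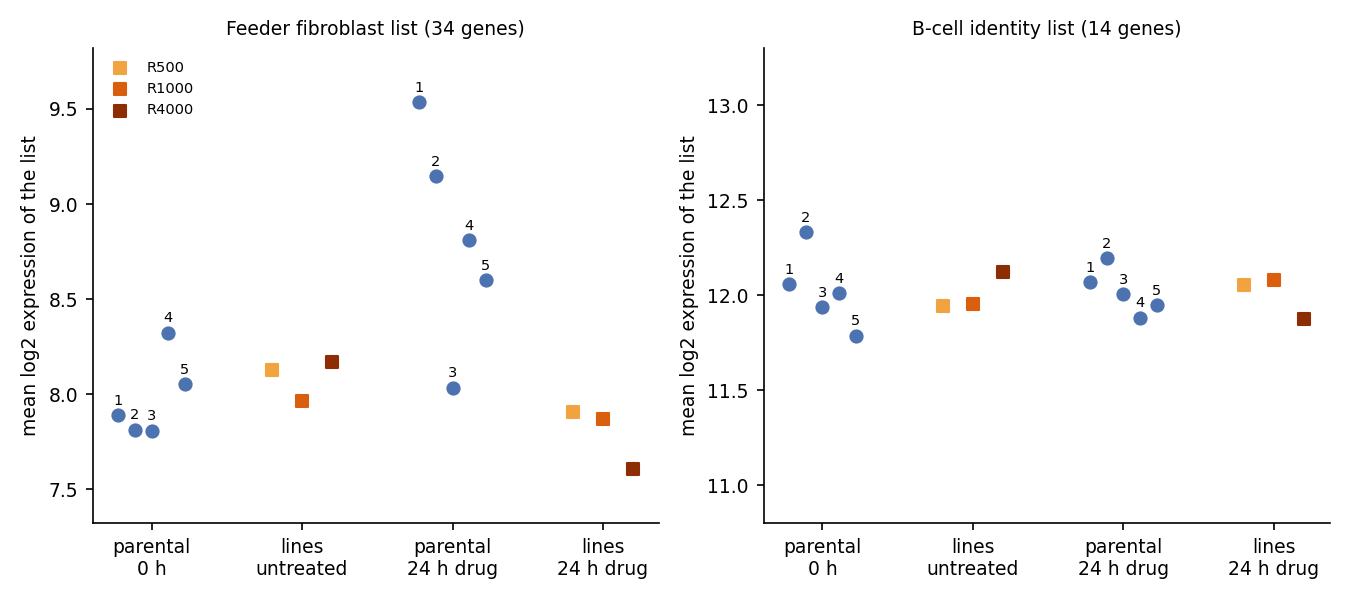
Mean log2 expression of the feeder fibroblast list (left) and the B-cell identity list (right) in each array of the parental cultures (circles, numbered by replicate) and the resistant lines (squares), without drug and after 24 h of 750 nM mafosfamide. The treated lines sit between 7.61 and 7.91 on the fibroblast list, below all 5 treated parental cultures, whereas the B-cell list overlaps.

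Of the 34 fibroblast genes, 33 lay below 0 in the treated comparison, with a median log2 difference of -0.94 against 0.02 over all genes tested. Over all 19937 genes, 8403 lay below 0. Sparc, a collagen-binding matrix protein, was at 10.05, 9.91 and 9.32 in the lines. In the parental cultures it was at 12.46, 11.85, 10.19, 11.71 and 11.32, a spread that left a log2 difference of -1.74 ± 0.42 SE with an adjusted p of 0.0924. Thbs1, which encodes thrombospondin, differed by -1.96 ± 0.45 SE (adjusted p = 0.0822). The 3 lines lay below all parental cultures for 18 of the 34 genes (1343 of all 19937), and 1 gene, Fstl1, passed the test.

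In all, 129 of 19937 genes passed the test at an adjusted p under 0.05 (0.647%). Of these, 16 were higher in the lines (0.0803% of genes tested) and 113 were lower (0.567%). After each array was centred on its median the split was 56 higher and 138 lower. At least 2-fold differences were reached by 4 of the higher and 34 of the lower genes. The 3 lines and the 5 parental cultures did not overlap for any of the 129. With so few arrays a call nearly requires this, so it is no further support for the calls. Of all genes, 11.8% showed no overlap. At an unadjusted p under 0.05 there were 2950 genes.

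Which of these differences followed feeder RNA was read from arrays of 1 kind. Over the 23 parental arrays of all times, each gene's deviations from its time mean were correlated with those of the fibroblast list (r). A gene was called feeder-linked where r was at least 0.7 and it was lower in the lines, or at most -0.7 and it was higher. The correlation does not use the difference between lines and parental cells. Its points share cultures and flasks, so it is a description.

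Of the 276 genes that differed by at least 2-fold, called or not, 213 were feeder-linked (77.2%), and 212 of these were among the 259 lower genes (81.9%). Feeder-linked genes made up 4.29% of all genes. The 213 genes had a median difference of 1.39 on the log2 scale, and 11 of them passed the test. Their median SD among the parental cultures was 0.72, against 0.17 for the called genes that were not feeder-linked.

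Among the 129 genes called, 16 were feeder-linked (12.4%), 15 lower and 1 higher. The test seldom calls genes that vary widely among the parental cultures. Shares of linked genes among the calls therefore do not measure how far feeder RNA enters the comparison. This share depended on how culture was handled. In the parental cultures the highest feeder levels at 24 h and 48 h were those of numbers 1 and 2, so feeder level and culture number could not be told apart by time alone. After the mean of each culture number was removed along with that of each time, 38 of the 129 were feeder-linked (29.5%, against 5.63% of all genes), all of them lower, and 13 were linked both ways. These culture numbers were those of the sample descriptions, and with the numbers of the sample titles, which differ at 6 h and 12 h, 28 were linked (21.7%, against 4.81% of all genes), 25 of them the same genes. Linked by neither measure were 88 genes, 73 lower and 15 higher. Of the 34 genes that were called and at least 2-fold lower, 21 were linked by at least 1 of the measures and 13 by neither.

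**Figure D2:**
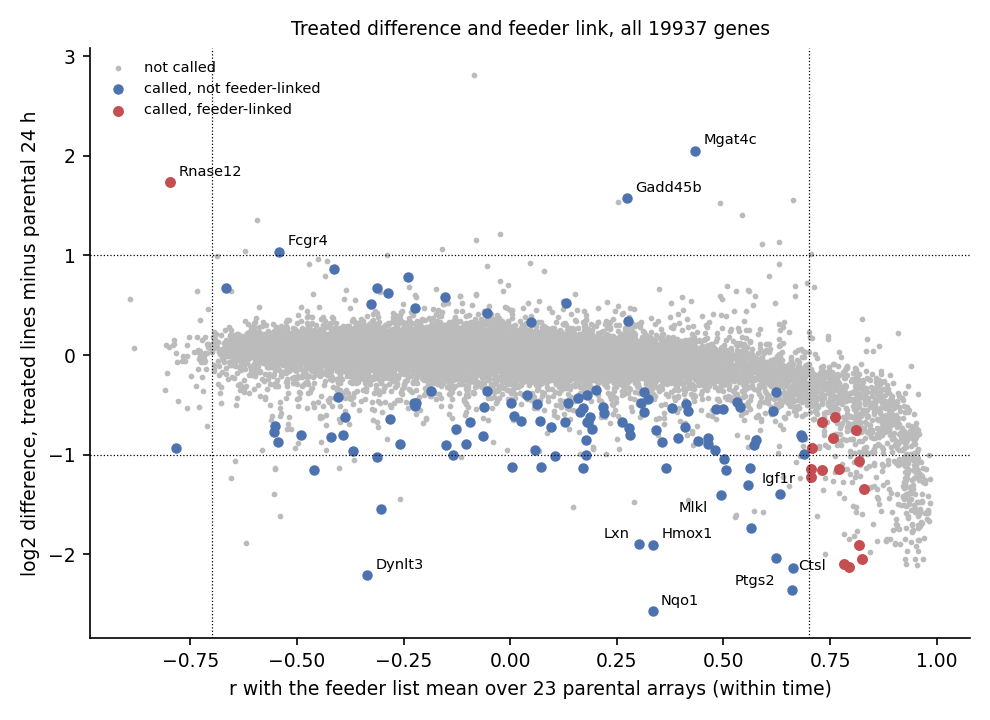
Log2 difference of the treated lines from the 24 h parental cultures against the correlation with the feeder list mean over 23 parental arrays, for all 19937 genes; dotted lines mark r of 0.7 and -0.7 and 2-fold differences. The large lower differences crowd beyond r = 0.7 and are mostly not called, while most of the called genes lie between the vertical lines.

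The called genes that were feeder-linked by both measures included Tmem47, Ctsl, Cpe, Fosl1 and Igf1r. Tmem47, a membrane protein of cell junctions, was at 7.14, 7.39 and 6.69 in R500, R1000 and R4000. It was at 9.49, 9.65, 7.98, 9.71 and 9.16 in parental replicates 1 to 5 (r = 0.79). Its log2 difference of -2.12 ± 0.36 SE (adjusted p = 0.0449) became -0.44 when the fibroblast mean was a covariate in a fit of all 30 arrays. Ctsl, the lysosomal protease cathepsin L, differed by -2.09 ± 0.33 SE (r = 0.78) and by -0.54 with the covariate. Cpe, carboxypeptidase E, differed by -1.91 ± 0.34 SE (r = 0.82) and by -0.38 with it. Igf1r, the receptor of insulin-like growth factor, differed by -1.22 ± 0.17 SE (r = 0.71) and by -0.59 with it.

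Fstl1, a secreted glycoprotein and a member of the fibroblast list, was linked by both measures (r = 0.82 and 0.92). It was at 8.56, 8.25 and 7.37 in the lines and at 10.91, 10.07, 9.49, 10.15 and 9.90 in the parental cultures. The log2 difference was -2.04 ± 0.32 SE (adjusted p = 0.033), and -1.08 with the covariate (adjusted p = 0.0301), or -0.86 with culture number added (adjusted p = 0.0836). Since it is part of the covariate, it was left out of the counts made with it. The single linked gene among the higher ones was Rnase12, of the ribonuclease A family, with a log2 difference of 1.74 ± 0.30 SE and r of -0.80. Its values were 10.35, 11.21 and 10.23 in the lines and 8.36, 8.35, 9.45, 8.94 and 9.18 in parental replicates 1 to 5, so the 2 cultures richest in feeder RNA had the lowest levels. With the covariate the difference was 0.88 (adjusted p = 0.732).

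Several lower genes fell short of r = 0.7 by time alone but were linked once culture number was removed. Ptgs2, the inducible cyclooxygenase, was at 9.63, 9.42 and 8.58 in the lines and at 11.69, 11.64, 10.42, 11.82 and 11.17 in the parental cultures. Its log2 difference was -2.14 ± 0.33 SE (adjusted p = 0.0316). Its r rose from 0.66 to 0.93, and its difference became -0.72 with the feeder covariate and 0.23 with the covariate and culture number. Plau, the urokinase plasminogen activator, went from -1.30 to -0.39 and 0.09. Akr1c18, an aldo-keto reductase, went from -2.36 to -0.72 and -0.49. Ccnd2, the G1 cyclin D2, went from -1.40 (adjusted p = 0.00258) to -0.75 and -0.21. In Ccnd2 the groups were well apart, with 9.95, 10.01 and 9.86 in the lines and 11.04 to 11.66 in the parental cultures.

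The immediate early list holds transcription factors and regulators induced within minutes of a stimulus. Among its 22 measured members 3 were called, all lower, and 16 lay below 0 (median -0.13). After median centring 12 lay below 0 (median -0.04). Over all 19937 genes these counts below 0 were 8403 and 4135. The called genes were Jun (-1.15 ± 0.17 SE, adjusted p = 0.0295), Fosl1 (-1.35 ± 0.24 SE, adjusted p = 0.0462) and Ier3 (-0.81 ± 0.15 SE, adjusted p = 0.0487). By time alone Fosl1 was feeder-linked (r = 0.83) and Jun and Ier3 were not (0.51 and 0.68). After removal of culture number r was 0.83 for Jun, 0.94 for Fosl1 and 0.85 for Ier3. With the covariate the median of the list was 0.10 and 0 members were called. Jun and Fosl1 encode subunits of the AP-1 factor.

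To see which calls were left at equal feeder level, the fibroblast mean was entered as a covariate in the 30-array fit, which sets its slope within groups. Outside the list, 79 genes were then called, 27 higher and 52 lower (80 with the list, 0.401%). Of the 129, 26 were still called, 5 higher and 21 lower. Over the 129, the median ratio of the difference with the covariate to that without was 0.79, and none changed sign. When culture number was added, 97 genes were called, 20 of them among the 129 (99 and 25 with the numbers of the titles). With the covariate alone and with the description numbers added, 16 of the 129 genes were called, 3 higher (Gadd45b, Fcgr4 and Smoc1) and 13 lower. Of the higher ones, Fcgr4 and Smoc1 had weak signal, near the array medians. The lower ones were Dynlt3, Lxn, Mlkl, Plcg1, Pon3, Eci2, Bivm, Fer, Ticam2, Mettl7a1, Spns3, Zfp760 and 2610524H06Rik. The covariate fit leaned on parental replicate 3: without it 5 genes were called in place of 79.

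Lxn and Mlkl were among the lower genes linked by neither measure. Lxn encodes latexin, an inhibitor of carboxypeptidases. It stood at 8.07, 8.17 and 7.78 in the lines and at 10.31, 9.997, 9.79, 9.81 and 9.64 in the parental cultures. The log2 difference was -1.90 ± 0.15 SE (adjusted p = 0.00161), and -1.62 with the feeder covariate (adjusted p = 0.0087). Mlkl is the membrane-permeating effector of necroptosis, a regulated form of cell death. It stood at 6.57, 7.04 and 6.78 in the lines and at 8.44, 8.32, 8.06, 8.18 and 8.02 in the parental cultures. Its difference was -1.40 ± 0.12 SE (adjusted p = 0.00305), and -1.08 with the covariate (adjusted p = 0.00614).

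Dynlt3, a light chain of the dynein motor, had values of 6.95, 7.02 and 6.45 in the lines. In parental replicates 1 to 5 it had 8.65, 8.46, 9.13, 9.38 and 9.43, so here the cultures richest in feeder RNA were the lowest (r = -0.34). The difference was -2.20 ± 0.24 SE (adjusted p = 0.00844) and grew to -2.62 with the covariate. Plcg1, the phospholipase that signals below growth factor and antigen receptors, differed by -0.90 ± 0.09 SE (adjusted p = 0.00844). Pon3, a lactonase, differed by -1.03 ± 0.14 SE (adjusted p = 0.0194). Eci2, an isomerase of fatty acid oxidation, differed by -1.005 ± 0.12 SE (adjusted p = 0.0124). Ticam2, an adaptor of Toll-like receptor 4, differed by -0.72 ± 0.10 SE (adjusted p = 0.0251). Like all genes called lower, each was below all 5 parental cultures in all 3 lines.

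Maoa and Ptgir were less settled. Maoa, the mitochondrial monoamine oxidase A, was at 6.10, 6.03 and 5.94 in the lines and at 7.44 to 8.26 in the parental cultures. Its difference of -1.74 ± 0.19 SE (adjusted p = 0.00844) became -1.22 with the feeder covariate (adjusted p = 0.0169) and -0.67 with culture number added (adjusted p = 0.125). Its r was 0.56 by time and 0.90 after removal of culture number. Ptgir, the prostacyclin receptor, differed by -1.54 ± 0.26 SE (adjusted p = 0.0459). With the covariate the difference was -2.01 (adjusted p = 0.0724).

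Of the 16 genes higher in the lines, 15 were linked to feeder RNA by neither measure. Gadd45b, a stress-induced regulator of MAP kinase signalling, was at 11.47, 11.66 and 12.07 in R500, R1000 and R4000. It was at 10.48, 10.36, 10.07, 10.06 and 9.83 in the parental cultures, a difference of 1.58 ± 0.17 SE (adjusted p = 0.00844). With the feeder covariate the difference was 1.69 (adjusted p = 0.000425). Mgat4c, annotated as an N-acetylglucosaminyltransferase, differed by 2.05 ± 0.26 SE (adjusted p = 0.0144). Its lines were unequal, at 6.53, 6.86 and 7.89, and the parental cultures lay between 4.88 and 5.35. Fcgr4, a receptor for immunoglobulin G, was at 7.28, 7.58 and 7.28 in the lines. The parental cultures lay at 6.18 to 6.26 except for replicate 3, at 6.80 (difference 1.04 ± 0.14 SE, adjusted p = 0.0227). In both groups Fcgr4 was near or below the array medians and the level of the deleted Cdkn2a, so its signal was weak.

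The other higher genes differed by less than 2-fold. Sh2b2, an adaptor of receptor tyrosine kinases, differed by 0.86 ± 0.12 SE (adjusted p = 0.0251), and Smoc1, a secreted calcium-binding matrix protein, by 0.78 ± 0.14 SE (adjusted p = 0.0462). Slc1a4, a transporter of neutral amino acids, differed by 0.58 ± 0.10 SE (adjusted p = 0.0462), and 0.48 with the covariate (adjusted p = 0.421). Pla2g5, a secreted phospholipase, differed by 0.62 ± 0.11 SE (adjusted p = 0.0462), and 0.52 with the covariate (adjusted p = 0.129). Over the 8 arrays Smoc1 (6.55 to 7.85) and Pla2g5 (6.69 to 7.62) also lay near the array medians. Bfsp2 fell just short of the link by both measures (r = -0.67 in each). Its difference was 0.67 ± 0.12 SE (adjusted p = 0.0488), and 0.35 with the covariate (adjusted p = 0.90).

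The oxidant response list holds genes of the NRF2 response, and also Nfe2l2, which encodes NRF2 itself, and Keap1, which regulates it. It held the largest called difference of the comparison. Of 19 measured members, 5 were called lower and none higher, 15 lay below 0, and the median was -0.36. In 10 of them the lines were below all parental cultures. Over all 19937 genes, 8403 lay below 0, and in 1343 the lines were below all parental cultures. With the feeder covariate the median was -0.15, and 3 members were feeder-linked, none of them called. The median stayed below 0 when arrays were centred on their median (-0.27) or on ribosomal protein genes (-0.40). Nqo1, the quinone reductase that is the textbook NRF2 target, was at 6.14, 6.19 and 5.90 in the lines. It was at 9.14, 8.81, 8.50, 8.71 and 8.08 in the parental cultures, a 5.93-fold difference (log2 difference -2.57 ± 0.20 SE, adjusted p = 0.00161). Its r was 0.33, and 0.57 after removal of culture number. From replicate 3 alone, the parental culture of lowest feeder level, the lines differed by -2.42. With the feeder covariate the difference was -1.99 (adjusted p = 0.0533), and -1.31 with culture number added (adjusted p = 0.226).

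Hmox1, which breaks down haem, was at 9.38, 9.20 and 8.93 in the lines and at 11.80, 10.77, 10.76, 11.42 and 10.61 in the parental cultures (difference -1.90 ± 0.26 SE, adjusted p = 0.0204). Its r was 0.33 by time and 0.79 after removal of culture number, and the difference became -1.20 with the feeder covariate (adjusted p = 0.86) and -0.08 with culture number added. Slc7a11, the cystine importer that feeds glutathione synthesis, was at 6.49, 6.36 and 5.89 in the lines. Its parental values were 8.22, 8.47, 7.46, 9.01 and 8.27 (difference -2.04 ± 0.29 SE, adjusted p = 0.0232), and the difference became -1.04 with the covariate and -0.61 with culture number added (adjusted p = 0.423). Its r was 0.62 by time and 0.78 after removal of culture number. Gclm and Txnrd1, the modifier subunit of the glutathione-forming ligase and a thioredoxin reductase, were linked by neither measure. Gclm was at 11.39, 10.98 and 11.01 in the lines and at 11.67 to 11.83 in the parental cultures (-0.61 ± 0.10 SE, adjusted p = 0.0334, r = 0.01). Txnrd1 was at 10.97, 10.93 and 10.77 against 11.26 to 11.50 (-0.48 ± 0.08 SE, adjusted p = 0.0378, r = -0.23). Their differences with the covariate were both -0.59, with adjusted p-values of 0.153 and 0.176. With it, 0 members of the list were called.

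NRF2 binds the antioxidant response element, whose core was searched as TGACNNNGC on both strands in the 250 bases before each gene start. RefSeq promoter windows (GRCm38.p6) were at hand for 4 of the 5 called genes, Nqo1, Slc7a11, Gclm and Txnrd1. The core was present in 2 of them, Gclm and 1 of the windows of Txnrd1, and in 10.2% of all 32851 windows. The first count is by gene and the second by window, so they are not alike. Elements farther than 250 bases from the start were not searched, for Nqo1 and Slc7a11 as for the others. The stretches around it are shown for these 2 genes, because the core was found there; capitals mark the core, which lies on the reverse strand, 134 and 92 bases before the start.
Gclm, chr3:122245403-122245451, plus strand: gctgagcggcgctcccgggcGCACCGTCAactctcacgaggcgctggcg
Txnrd1, chr10:82859094-82859142, plus strand: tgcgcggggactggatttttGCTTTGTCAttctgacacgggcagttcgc
A match is a description of the letters and no evidence of binding.

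The glutathione list overlapped with the oxidant list. Of 30 measured members, 3 were called lower, none higher, and the median was -0.20 with 11 members above 0 (11534 of all 19937 genes). Besides Slc7a11 and Gclm the call was for Mgst1, a microsomal glutathione transferase, at 8.40, 8.42 and 8.62 in the lines and 8.96 to 9.36 in the parental cultures (-0.67 ± 0.10 SE, adjusted p = 0.0316, r = 0.07). Gstk1, the mitochondrial glutathione transferase, had a larger difference of -1.48 ± 0.27 SE that missed the threshold (adjusted p = 0.052).

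**Figure D3:**
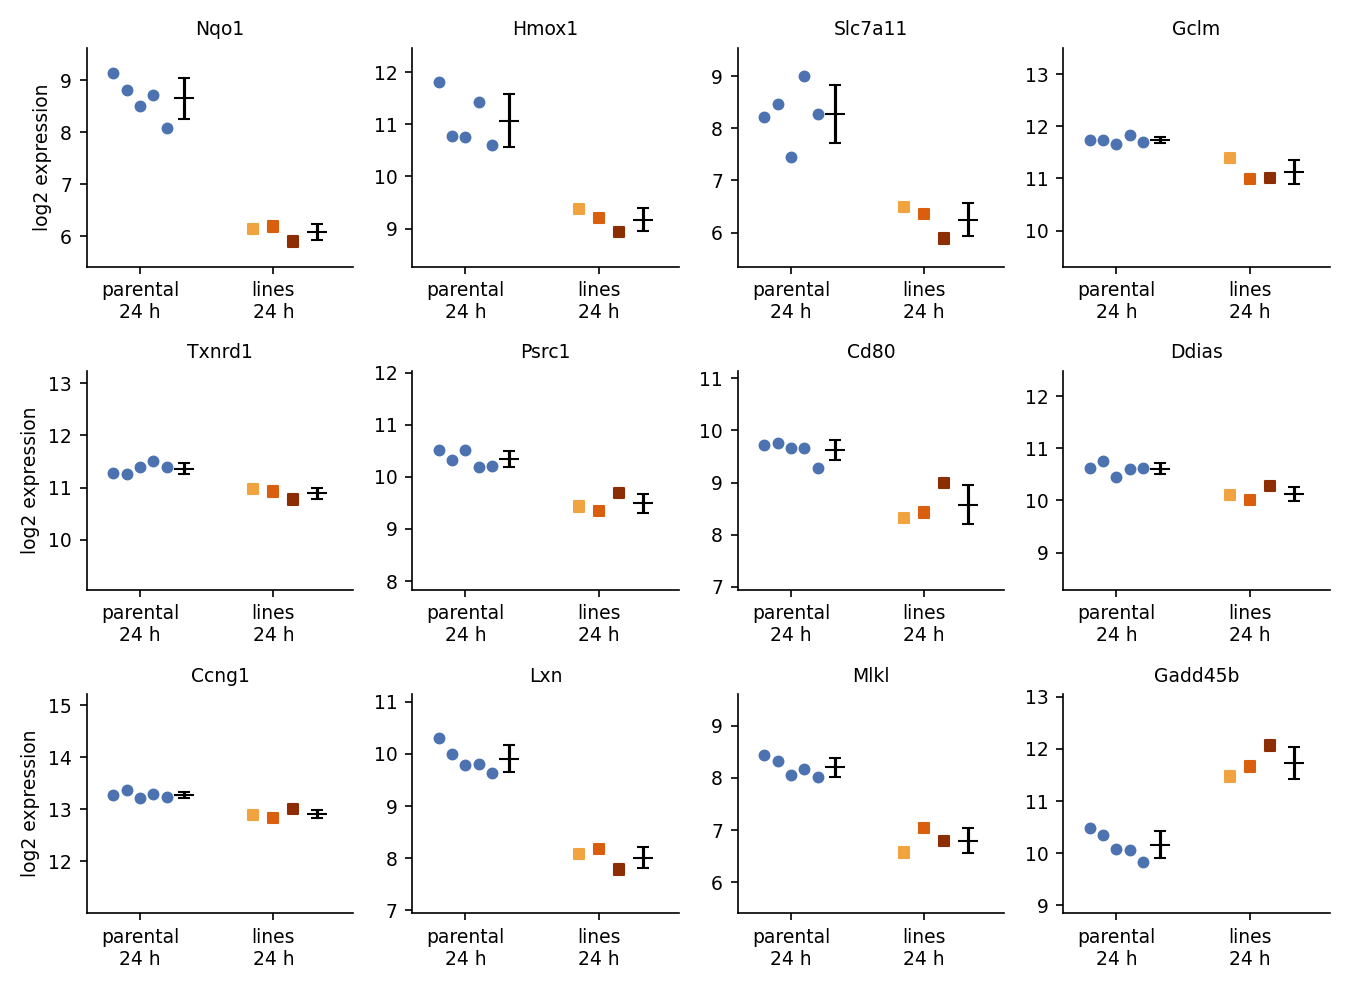
Log2 expression of 12 called genes in the 5 parental cultures (circles, replicates 1 to 5 from left to right) and in R500, R1000 and R4000 (squares from left to right) after 24 h of 750 nM mafosfamide; bars are mean and SD. Each axis spans the same log2 range, and in every panel the groups do not overlap, as for all called genes.

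The p53 target list leaned lower in the lines. Of 34 measured members, 4 were called lower and none higher, and 29 lay below 0 (8403 of all 19937 genes). The median was -0.26 (-0.17 after median centring and -0.31 after ribosomal centring). Psrc1, a spindle protein, was at 9.43, 9.35 and 9.70 in the lines and at 10.18 to 10.51 in the parental cultures (-0.86 ± 0.11 SE, adjusted p = 0.0144, r = 0.18). Cd80, the costimulatory ligand for T cells, was at 8.31, 8.42 and 8.996 in the lines. The parental cultures were at 9.72, 9.77, 9.67, 9.66 and 9.28 (-1.04 ± 0.16 SE, adjusted p = 0.0316, r = 0.50). Ddias, an inhibitor of damage-induced death, differed by -0.48 ± 0.09 SE and Ccng1, cyclin G1, by -0.37 ± 0.07 SE, both with an adjusted p of 0.0462.

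Part of this list followed feeder RNA. There were 6 feeder-linked members, and none of them was called. Perp, a membrane protein of p53-driven death, differed by -1.54 (r = 0.95, adjusted p = 0.0844), Ak1, an adenylate kinase, by -1.09 (r = 0.87, adjusted p = 0.0852), and the death receptor Tnfrsf10b by -0.93 (r = 0.93, adjusted p = 0.134). With the covariate these 3 differences were -0.14, -0.13 and 0.07. The median of the whole list became -0.12, and 0 members were called. For Dglucy and Zmat3, R500 and R1000 lay below all parental cultures and R4000 among them. Dglucy was at 7.71, 7.41 and 8.77 against 8.61 to 9.01 (adjusted p = 0.161), and Zmat3, an RNA-binding protein, was at 9.02, 8.92 and 9.54 against 9.21 to 9.62 (adjusted p = 0.339). The BH3-only death genes Bbc3 and Pmaip1 differed by -0.22 and -0.20 (adjusted p = 0.328 and 0.314).

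In the lists of B-lineage transcription factors (28 measured), mature B genes (21) and plasma cell genes (14), 1 gene each was called. Among 23 early B genes and 21 genes of B-cell receptor signalling 0 were called. Over all 19937 genes 129 were called (0.647%), so these counts do not show how stable the B-lineage genes were. Id2, an inhibitor of E-protein transcription factors, was the single gene called among 28 B-lineage transcription factors (median -0.01). It was at 9.46, 9.40 and 9.44 in the lines and at 10.10 to 10.54 in the parental cultures (-0.83 ± 0.10 SE, adjusted p = 0.0124), and the difference was -0.52 with the feeder covariate (adjusted p = 0.514). Ell2, a transcription elongation factor active in plasma cells, differed by -1.13 ± 0.14 SE (adjusted p = 0.0132), and by -0.33 with the covariate and culture number. Among 25 interferon genes 23 lay below 0 (median -0.17), or 16 after median centring (median -0.08). Over all 19937 genes these counts were 8403 and 4135. Ddx58, the viral RNA sensor RIG-I, was called (-0.67 ± 0.12 SE, adjusted p = 0.0462). The median of the Myc list was 0.05, and Ccnd2 was its 1 call of 28.

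No member was called among 46 DNA repair genes (median 0.01), 19 damage checkpoint genes (0.055), 15 BCL2 family genes (-0.07), 19 aldehyde dehydrogenases (-0.05) or 19 drug efflux genes (0.04). Of all 19937 genes 129 were called (0.647%), so 0 calls in lists of this size does not set them apart from other genes. Aldehyde dehydrogenases oxidise an intermediate of the drug. The lowest p among them was that of Aldh1a1, whose difference of -0.68 (adjusted p = 0.363, r = 0.78) was 0.20 with the feeder covariate. Aldh3b1 differed by -0.64 (adjusted p = 0.396, r = -0.45). Its difference was -1.36 with the covariate (adjusted p = 0.238), -0.73 with culture number added (adjusted p = 0.0121), and -1.10 against the 3 parental cultures of lowest feeder level (adjusted p = 0.00697). Abcb1b, a P-glycoprotein pump, lay the other way. It was at 7.93, 8.08 and 8.17 in the lines and at 8.24, 7.88, 7.08, 7.79 and 7.47 in parental replicates 1 to 5, so the plain difference was 0.37 (adjusted p = 0.475). Its level followed feeder RNA in the parental cultures (r = 0.83), and with the covariate the difference was 0.99 (adjusted p = 0.0106), or 0.77 with culture number added (adjusted p = 0.0541). Uty, a Y-linked histone demethylase, shows how culture number enters. It was at 5.36, 5.18 and 5.22 in the lines and at 5.92, 5.55, 8.40, 7.69 and 8.10 in parental replicates 1 to 5 (-1.88 ± 0.62 SE, adjusted p = 0.192). The covariate gave -3.95, and the covariate with culture number -2.35. Parental replicates 1 and 2, the cultures richest in feeder RNA, were nearest to the lines, so for Uty feeder level and culture cannot be told apart in these fits. Uty belongs to 2 lists, of 14 Polycomb and histone demethylase genes and of 7 Y-linked genes. With the covariate 1 member of each was called lower, and without it 0.

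Without drug few genes passed the test. Untreated R500, R1000 and R4000 against the 5 parental cultures at 0 h gave 2 of 19937 genes past the test (0.01%), Gadd45b higher by 1.34 and Btg2, an antiproliferative p53 target, lower by 1.10, both with an adjusted p of 0.049. At an unadjusted p under 0.05 there were 1144. Of the 16 genes higher with drug, 14 were also above 0 without it, and of the 113 lower genes 73 were also below 0. Over all 19937 genes the median difference without drug was -0.009, so about as many genes lay below 0 as above. Gadd45b was the 1 gene called in both. Nqo1 differed by -0.36 without drug, Lxn by -0.75, Dynlt3 by -0.77, Mlkl by -0.11 and Id2 by -0.83, none of them called. The fibroblast list had a median of 0.05 without drug.

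**Figure D4:**
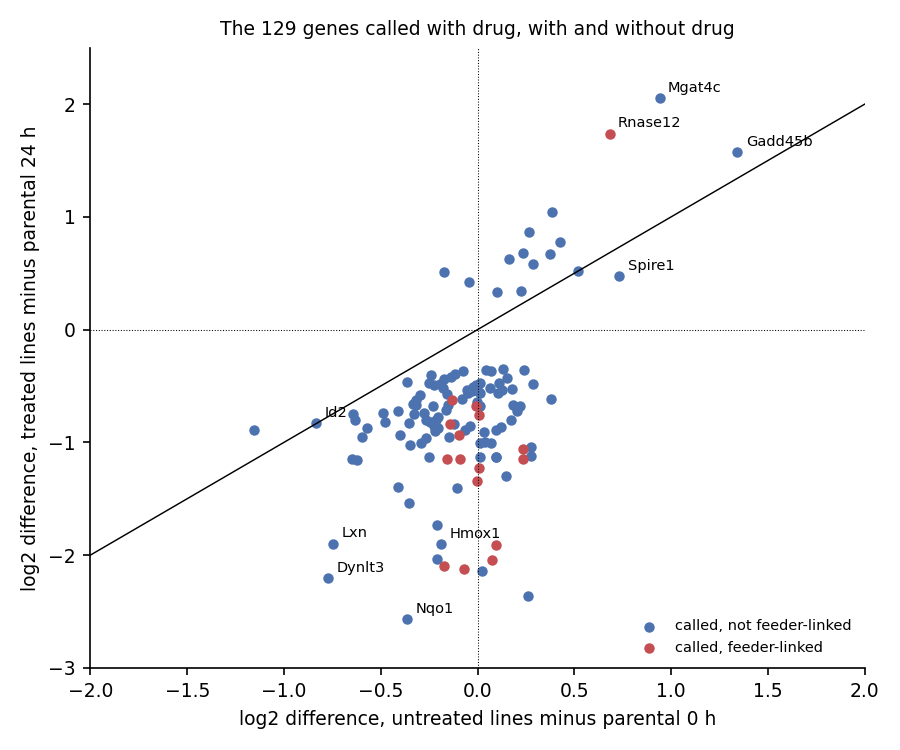
Log2 differences between lines and parental cells with drug (24 h, vertical) and without drug (0 h, horizontal) for the 129 genes called with drug; the diagonal marks equal differences. Gadd45b and Id2 lie near the diagonal. Nqo1 (-0.36), Hmox1 (-0.19) and the feeder-linked Tmem47, Ctsl, Cpe, Fosl1 and Igf1r lie nearer 0 on the horizontal axis than on the vertical. Rnase12, the linked gene that is higher, lies at 0.68 on the horizontal axis.

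Whether the difference itself changed with drug was tested in a fit of 16 arrays with a term for each line. None of 19937 genes passed (0%), with 1562 at an unadjusted p under 0.05. With the parental culture number as a replicate block, since same-numbered cultures deviated together, 8 genes passed. All 8 were lower and none was feeder-linked: Nqo1, Klhl22, Lgr4, Utrn, Ahnak, Car13, Dag1 and Serpinb9. Nqo1 rose by 1.84 in the parental cultures between 0 h and 24 h and went by -0.36 in the lines (difference -2.20, adjusted p = 0.0438 with the block and 0.24 without).

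The median SD over all genes was 0.09 among the lines and 0.12 among the 5 parental cultures. Relative to the parental mean, the median size of the 129 differences was 0.77 for R500, 0.79 for R1000 and 0.78 for R4000. R4000, which also had the lowest feeder level, was the line farthest from the parental cells for 68 of the 129, R1000 for 33 and R500 for 28. The calls rested on few arrays. Only Nqo1, Lxn, Mlkl, Dynlt3, Gadd45b, Plcg1, Maoa, Ccnd2, Ell2 and Eif5a2, a translation factor, were called whichever of the 8 arrays was left out. Leaving out R500, R1000 or R4000 gave 20, 16 and 27 calls. Leaving out parental replicate 2, 4 or 5 gave 75, 27 and 41, and leaving out replicate 3 gave 730.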

How the data were processed

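Robust multi-array averaging (RMA, affy, per the submitters' processing notes, with the mm9 build) was used by the authors, and the deposited values are log2 expression. RMA gives all arrays a common intensity distribution, so cells with more or less total RNA look alike. Of 34760 probe sets, 21640 carried 1 symbol in the platform annotation, 1321 several and 11799 none. A gene with several probe sets (954) was represented by the brightest, which left 19937. Trp53, Cdkn1a and Bax were not analysed here.

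Groups came from the sample labels. Comparisons were fitted with limma 3.58.1 (lmFit, eBayes), adjusted by Benjamini-Hochberg over all genes and tested on simulated data. Errors are SE of the fit. Genes named were the largest called differences whose groups did not overlap (12 in each direction not feeder-linked, 6 linked), up to 4 members of each of 34 lists by p and fixed names; other genes named in groups of calls were chosen after their values were seen. The comparison, members and lists were chosen with earlier results of these data known. Culture numbers came from the sample descriptions, which at 6 h and 12 h number the replicates 2 to 5 where the titles have 1 to 4; their use in the feeder correlation and covariate and the title numbers as an alternative were chosen after seeing the data. Deviations of same-numbered 0 h and 24 h parental arrays correlated at 0.131 to 0.342 (other pairs at -0.442 to 0.239, with 3 of 5 numbers matching best with their own), so the numbers were taken to pair cultures. The number of arrays limits the precision. Alternatives covered scaling, low signal, array weights, variance trend, arrays fitted, feeder covariates, probe set choice and each array left out.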

Additional observations from a re-analysis of the deposited data

Results flagged for a closer look

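In 2 of 73 genes named here, 1 of the 5 parental cultures at 24 h stood apart, where chance sets a sample apart in about 1 of 20 groups. For Fcgr4 the highest culture was replicate 3, at 6.80, with a gap to the next that was 0.875 of the range of the group. For Cd80 the lowest was replicate 5, at 9.28, with a gap of 0.789 of the range. In both genes the 3 treated lines lay beyond that culture, as they did for all called genes.

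For 5 named genes every line went one direction on drug and every parental 24 h culture lay on the other side of every 0 h culture, and no gene passed the test of that difference without the culture pairing. The mean log2 change of the 3 lines on drug was 0.116 for Btg2, which fell by 0.73 in the parental means. It was -0.588 for Klhl22, -0.669 for Maoa, -0.493 for Serpinb9 and -0.184 for Spns3, which rose in the parental means. With the replicate block, Klhl22 and Serpinb9 passed (adjusted p = 0.0432 and 0.0182).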

How the results depend on the processing

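The counts of calls depended on the scaling, the arrays and the feeder adjustment. Against 129 genes called with drug (16 higher, 113 lower), median centring gave 194 with 56 higher, centring on ribosomal protein genes 241 with 227 lower, array weights 927 (201 and 726), the 30-array fit 792 (78 and 714), and the 3 parental cultures of lowest feeder level 437 (87 and 350). The feeder covariate gave 80 (27 and 53) over 30 arrays and 79 over 8 arrays, 57 of them lower. With culture number added the split was 26 and 71, or 31 and 68 with the numbers of the titles, and over 7 arrays without parental replicate 3 it was 8 (6 and 2). Leaving out 1 array at a time gave 16 to 730 calls (2 to 51 higher, 10 to 679 lower). The cause was not tested. Without drug, against 2 calls, both centrings gave 0, array weights 37, the robust trend 4, the 30-array fit 206, and leaving out 1 array 0 to 3. For the difference between the differences with and without drug, against 0 calls, array weights gave 14, the replicate block 8, and leaving out 1 array 0 to 128, the highest without parental replicate 3. The feeder-linked share of calls was 27.9% at an r of 0.5 (10.7% of all genes) and 3.88% at 0.8 (2.74%). After removal of culture number at 0.7 it was 29.5% with the numbers of the descriptions and 21.7% with those of the titles. The count with the feeder covariate was 5 to 79 with 1 array left out. With culture number beside the feeder covariate 7 called genes changed sign, to 0.23 (Ptgs2), 0.0927 (Plau), 0.0089 (Tmem47), 0.0593 (Cpe), 0.0263 (Fosl1), 0.40 (Jun) and 0.13 (Ier3), and in the 7-array covariate fit Ddx58 changed to 0.053. A dim gene compresses toward background on these arrays, so differences near the lower end of the scale are understated.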
